A study of Homo sapiens with 4 samples.

Results

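The 10 genes described here are 4 transcription factors of the epithelial-to-mesenchymal transition (SNAI2, TWIST1, ZEB1 and ZEB2), 2 cadherins (CDH1 and CDH2), the filament protein VIM, the matrix protein FN1 and the tight junction scaffolds TJP1 and TJP3. They were chosen by name, and all 10 were found among the 57773 genes of each deposited table. RNA was sequenced from A2780, an established line of human ovarian cancer cells labelled as wild type and grown in medium with fetal bovine serum. The labels put 2 libraries in a DMSO vehicle group (numbered 1 and 2) and 2 in a group given wogonin, a plant flavone, at 10 ug/mL for 48 h (numbered 3 and 4). No treatment time is given for DMSO. The labels name no separate cultures within a group, and the p-values therefore reflect the spread between these 4 samples alone, which may be technical.

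Epithelial cells hold together through adherens junctions, built on E-cadherin and catenins, and through tight junctions, whose claudins and occludin are anchored to actin by zonula occludens scaffolds. In the epithelial-to-mesenchymal transition, factors of the SNAI, TWIST and ZEB families repress epithelial genes by binding E-boxes, short sequences of the form CANNTG, of which CAGGTG and its reverse complement CACCTG are the classical SNAI and ZEB sites. Mesenchymal cells carry N-cadherin, vimentin and fibronectin in place of E-cadherin and keratins. Ovarian carcinomas are known for mixed states between both ends.

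Promoter windows of 3 of the 10 genes are printed here as examples of the letters CANNTG. RefSeq promoter windows on GRCh38.p14, from 250 bases before to 50 bases after the start, were at hand for 7 of the 10 genes. Where a gene had several, the first one listed was searched. Windows of ZEB1, TJP1 and TJP3 are given 5′ to 3′ on the gene's own strand, with every CANNTG in capitals. The windows are chr10:31318167-31318466 (plus strand) for ZEB1, chr15:29969000-29969299 (minus strand) for TJP1 and chr19:3708134-3708433 (plus strand) for TJP3.
ZEB1: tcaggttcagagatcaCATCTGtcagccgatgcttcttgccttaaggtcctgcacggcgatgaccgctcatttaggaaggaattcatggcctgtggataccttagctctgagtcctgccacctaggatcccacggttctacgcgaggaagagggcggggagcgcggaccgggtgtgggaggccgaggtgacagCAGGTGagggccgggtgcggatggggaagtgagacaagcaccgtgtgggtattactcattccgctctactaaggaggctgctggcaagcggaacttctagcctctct
TJP1: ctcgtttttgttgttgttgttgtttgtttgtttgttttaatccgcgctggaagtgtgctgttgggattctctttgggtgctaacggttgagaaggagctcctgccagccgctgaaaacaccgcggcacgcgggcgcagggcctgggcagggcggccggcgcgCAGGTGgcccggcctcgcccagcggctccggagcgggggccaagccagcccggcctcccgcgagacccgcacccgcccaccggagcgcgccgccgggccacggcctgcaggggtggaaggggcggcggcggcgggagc
TJP3: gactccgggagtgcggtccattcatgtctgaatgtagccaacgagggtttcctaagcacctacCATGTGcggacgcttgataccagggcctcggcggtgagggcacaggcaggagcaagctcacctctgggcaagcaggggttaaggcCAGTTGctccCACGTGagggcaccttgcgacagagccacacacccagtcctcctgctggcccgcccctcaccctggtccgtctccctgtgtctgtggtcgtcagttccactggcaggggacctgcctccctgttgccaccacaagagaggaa
CAGGTG or CACCTG, searched on both strands, was found in 2 of the 7 windows. The match began 57 bases before the start in ZEB1 and 88 bases before it in TJP1. Of 27305 promoter windows of the same length, 20.6% held this motif. CANNTG, which covers both and reads the same on either strand, was found in 4 of the 7 windows (ZEB1, ZEB2, TJP1 and TJP3) and in 68.9% of all windows. TJP3 held 3 such matches, none of them CAGGTG or CACCTG. A match describes letters in this window and does not show that a factor binds there.

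Each library held between 11005921 and 11839562 exon reads, and 3 reads, the floor used here, were worth 0.253 to 0.273 reads per 1000000. Levels in CPM below are reads per 1000000 scaled by TMM, the trimmed mean of M-values. In wogonin 3, 7.96% of gene reads lay in introns, against 5.26% to 5.61% in the other 3 libraries. Mitochondrial genes took 3.03% of exon reads in wogonin 4 and 1.45% to 1.67% in the others. The cell type label of ovarian adenocarcinoma was set beside 15 ovarian carcinoma and epithelial markers. MUC1, which was lower after wogonin, and CLDN4, which was higher, were the only ones with enough reads to be tested. MUC16, WFDC2 and SOX17 had no read in any library, PAX8 had at most 2 reads, and EPCAM had 8 and 9 reads in DMSO and 4 and 2 in wogonin. The 15 markers summed to 12.4 CPM in each DMSO library and to 9.05 and 7.01 CPM in wogonin.

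Per unit of exon length, VIM and CDH2, of the mesenchymal side, stood far above CDH1, of the epithelial side, in both groups, while FN1, also of the mesenchymal side, was low, at 0.698 ± 0.165 TPM in DMSO and 0.522 ± 0.112 TPM in wogonin (SD, n = 2 each). VIM, the main intermediate filament of mesenchymal cells, was at 8397 ± 505 TPM in DMSO and 7607 ± 56.9 TPM in wogonin (SD, n = 2 each, deposited TPM, transcript counts per length scaled to a fixed sum). CDH2, which encodes N-cadherin, was at 82.9 ± 0.962 and 64.8 ± 0.793 TPM. CDH1, which encodes E-cadherin, was at 0.175 and 0.115 TPM in DMSO, 0.0604 TPM in wogonin 3 and 0 in wogonin 4. In DMSO the order of the levels was VIM, SNAI2, TWIST1, TJP1, CDH2, ZEB1, TJP3, ZEB2, FN1 and CDH1, and the libraries of neighbours in that order did not overlap. In wogonin TWIST1 stood above SNAI2, CDH2 above TJP1, and ZEB2 and TJP3 overlapped.

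**Figure D1:**
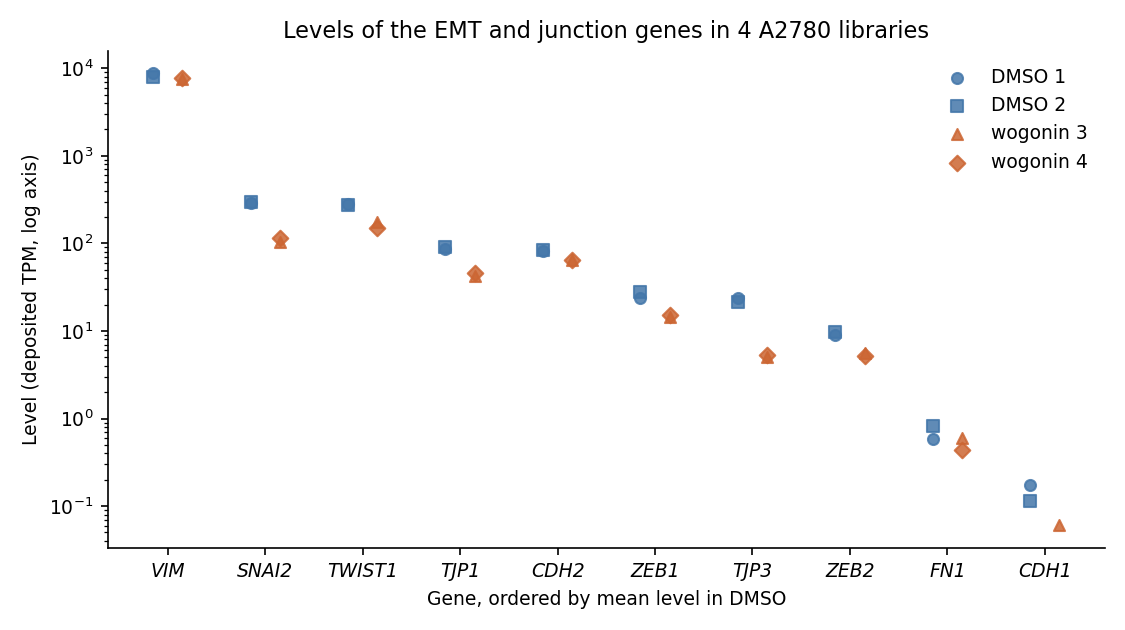
Deposited TPM (log axis) of the 10 genes in the DMSO libraries (blue) and the wogonin libraries (orange), 1 point per library; the value of 0 for CDH1 in wogonin 4 cannot be drawn on a log axis. VIM lies at 7567 TPM or above in every library, CDH1 lies below 0.2 TPM, and the wogonin points of SNAI2, TJP1 and TJP3 lie clearly below those of DMSO.

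After wogonin, 7 of the 9 genes that could be tested were lower in exon reads and none was higher. They were the 4 transcription factors, CDH2, TJP1 and TJP3, and the median log2 fold change of the 9 was -0.65. Of all 13449 genes tested, 63.8% were called, 31.5% lower and 32.3% higher, and their median was 0.00. Called means a p under 0.05 after Benjamini-Hochberg adjustment of edgeR's quasi-likelihood test. In bulk RNA, fewer cells of a type and less RNA per cell cannot be told apart. The genes were picked by name with earlier results of these data known, so this count is no independent evidence of a direction. VIM and FN1 were tested and not called, and CDH1 had too few reads to be tested.

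SNAI2 encodes Slug, a zinc finger repressor of E-cadherin (ENSG00000019549, chromosome 8, 49830249 to 49834299, gene spans as the deposited files give them, with builds GRCh 37 and hg 19 in the submitters' notes). It had 1836 and 1900 exon reads in DMSO, and 645 and 755 in wogonin. On the CPM scale these were 156 and 155 against 60.2 and 69.6, so both treated libraries lay well below both DMSO libraries. Groups that do not overlap were common here, in 81.9% of all genes tested. The log2 fold change was -1.26 ± 0.08 (SE, edgeR adjusted p = 8.9e-10), a level 2.39-fold lower. In reads that cross exon-exon junctions, which come from spliced RNA, it was -1.48 ± 0.12 (SE), and 55.7% of 11251 genes were called in such reads. Introns of this short gene gave 2 to 7 reads per library, too few to test.

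TWIST1, a basic helix-loop-helix factor (ENSG00000122691, chromosome 7, 19060614 to 19157295), had 136 and 130 CPM in DMSO and 89.2 and 80.1 CPM in wogonin. The log2 fold change was -0.65 ± 0.07 (SE, edgeR adjusted p = 8.7e-07). ZEB1, which encodes a factor with zinc finger clusters and a homeodomain (ENSG00000148516, chromosome 10, 31607424 to 31818742), had 48.5 and 55.5 CPM in DMSO and 31.2 and 34.4 CPM in wogonin. Its log2 fold change was -0.67 ± 0.10 (SE, edgeR adjusted p = 1.8e-05). ZEB2, its paralogue (ENSG00000169554, chromosome 2, 145141648 to 145282147), had 38.4 and 39.9 CPM in DMSO and 25.2 and 24.6 CPM in wogonin, at a log2 difference of -0.65 ± 0.10 (SE; edgeR adjusted p = 2.0e-05). In none of these 3 genes did the groups overlap, as was so for 81.9% of all genes tested. Their levels fell to between 1.57-fold and 1.59-fold lower. The fall of SNAI2 was larger in size, but differences between the genes were not tested.

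The falls were not shared by all relatives of these factors. SNAI3, a less studied member of the SNAI family, rose from 3.46 ± 0.389 to 16.3 ± 1.19 CPM (SD, n = 2 each), at a log2 difference of 2.24 ± 0.18 (SE; edgeR adjusted p = 1.6e-08). SNAI3 lies wholly within the span of SNAI3-AS1 on the opposite strand, which had 81 and 77 exon reads in DMSO and 177 and 183 in wogonin. The intron reads of SNAI3-AS1 were 224 and 209 in DMSO and 974 and 818 in wogonin. The strand setting of the counting is not given in the sources used here, so reads of the pair cannot be told apart. SNAI1, which encodes Snail, had 5 and 4 reads in DMSO and 1 and 4 in wogonin and was not tested. TWIST2 stood at 7.72 ± 1.80 and 9.28 ± 0.474 CPM, and its groups overlapped (edgeR adjusted p = 0.22).

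In a list of 15 transcription factors of the transition, which holds the 4 genes above, 12 were tested. Of these, 8 were lower, 1 was higher (SNAI3) and 3 did not pass. Of all 13449 genes tested, 31.5% were lower and 32.3% higher, shares that also apply beside the list counts below. TCF4, an E protein that pairs with TWIST factors, fell by 0.73 on the log2 scale, from 38.7 ± 1.70 to 23.4 ± 2.03 CPM. The homeobox genes PRRX1 and GSC were low and fell further, PRRX1 from 43 and 41 reads to 15 and 13, and GSC from 17 and 16 reads to 2 and 4. Among 10 corepressors that these factors recruit, 4 were lower and 3 higher. AJUBA, a LIM protein that binds SNAI factors, fell by 1.43 on the log2 scale, from 69.9 ± 4.28 to 25.9 ± 0.170 CPM, and the H3K27 methyltransferase gene EZH2 fell by 0.59. AJUBA overlaps RP11-298I3.5 on the same strand. CTBP1, which encodes a corepressor protein that ZEB factors bind, rose by 0.54 on the log2 scale, from 132 ± 16.5 to 191 ± 2.18 CPM. It overlaps CTBP1-AS2 on the opposite strand.

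The profile of SNAI2 over the 4 libraries was matched against 3957 tested genes of similar level. The nearest by Euclidean distance of centred log2 CPM were FUBP1 (distance 0.0441), DNM3 (0.0597) and BNIP3L (0.0856). They fell by 1.29, 1.29 and 1.27 on the log2 scale. With 4 libraries in 2 groups this ranking describes little more than the size of the change and the gap within each group.

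CDH1 (ENSG00000039068, chromosome 16, 68771128 to 68869451) was close to silent in both groups. It had 3 and 2 exon reads in DMSO and 1 and 0 in wogonin, so each library was at or below the floor of 3 reads and no fold change is given. A count of 0 in wogonin 4 allows a level of up to 0.266 reads per 1000000. CDH2 (ENSG00000170558, chromosome 18, 25530930 to 25757410) had 96.1 and 95.8 CPM in DMSO and 81.2 and 84.2 CPM in wogonin. The groups did not overlap, as was so for 81.9% of all genes tested. The log2 fold change was -0.21 ± 0.07 (SE, edgeR adjusted p = 0.013), a level 1.16-fold lower. The call was lost with DESeq2 (adjusted p = 0.070). It was also lost in edgeR when DMSO 2 or wogonin 3 was left out (adjusted p = 0.051 and 0.081).

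The other cadherins were mostly silent. Of 22 classical and related cadherins, 12 had no read in any library and 3 were tested: CDH2, CDH24 and CDH3. CDH3, which encodes P-cadherin and neighbours CDH1, had 2 reads in each DMSO library and 44 and 28 reads in wogonin (edgeR adjusted p = 3.2e-06). Its level in wogonin, 3.34 ± 1.08 CPM, was still far below that of CDH2. CDH24 rose by 0.54 on the log2 scale, from 24.7 ± 0.0935 to 35.8 ± 0.477 CPM.

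Most genes that keep the epithelial state were near the floor as well. Of 12 such factors 2 were tested, and both were lower. GRHL1, a grainyhead factor, had 51 and 54 reads in DMSO and 24 and 28 in wogonin (edgeR adjusted p = 0.013). ESRP1, an epithelial splicing regulator, had 16 and 36 reads in DMSO and 2 and 10 in wogonin (edgeR adjusted p = 0.014). The call of GRHL1 was lost with DESeq2 (adjusted p = 0.11) and without DMSO 1, DMSO 2 or wogonin 3 (edgeR adjusted p = 0.053, 0.064 and 0.066) and in exon-exon junction reads (edgeR adjusted p = 0.21), and that of ESRP1 without DMSO 2 or wogonin 3 (edgeR adjusted p = 0.21 and 0.094). GRHL2 had no read in any library.

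TJP1 and TJP3 encode ZO-1 and ZO-3, scaffolds that link claudins and occludin to the actin cytoskeleton. TJP1 (ENSG00000104067, chromosome 15, 29991571 to 30261068) had 2694 and 2889 exon reads in DMSO and 1293 and 1477 in wogonin. On the CPM scale these were 228 and 236 against 121 and 136, with no overlap, as was so for 81.9% of all genes tested. The log2 fold change was -0.85 ± 0.07 (SE, edgeR adjusted p = 1.5e-08). TJP3 (ENSG00000105289, chromosome 19, 3708107 to 3750811) had 283 and 261 exon reads in DMSO and 57 and 65 in wogonin. Its level fell from 24.0 and 21.3 CPM to 5.32 and 5.99 CPM, a level 3.99-fold lower (SE of the log2 value 0.15, edgeR adjusted p = 9.4e-09). A fall of at least this size was called in 2.13% of all genes tested.

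In the tight junction list as a whole, 22 of 36 genes were tested, of which 8 were lower, 6 higher and 8 not called, with a median of -0.10. CGN, which encodes cingulin, a partner of the ZO proteins, fell by 1.83 on the log2 scale, from 19.0 ± 3.11 to 5.34 ± 0.636 CPM. F11R, the adhesion molecule JAM-A, fell by 0.43, from 99.5 ± 0.724 to 73.9 ± 5.76 CPM, and overlaps RP11-544M22.13 on the same strand. JAM3, of the same family, rose by 0.80 on the log2 scale, from 63.6 ± 5.05 to 111 ± 1.68 CPM, and overlaps NCAPD3 on the opposite strand. The claudin gene CLDN5 had 2 and 1 reads in DMSO and 23 and 25 in wogonin (edgeR adjusted p = 1.2e-05), and CLDN4 had 3 and 4 reads against 20 and 15 (edgeR adjusted p = 6.3e-04). These claudin genes were thus close to the floor in DMSO, as was CLDN9, named after its values were seen (6 and 5 reads against 24 and 21). Also chosen after their values were seen, OCLN (occludin) rose by 0.21 on the log2 scale and CGNL1, a cingulin relative, went from 13 and 15 reads to 1 read in each wogonin library. OCLN overlaps GUSBP3 on the opposite strand, which had 290 and 335 exon reads in DMSO and 139 and 143 in wogonin.

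Among catenins, nectins and adherens junction linkers, 14 of 19 were tested, with 7 lower, 4 higher and 3 not called. JUP, which encodes plakoglobin, a catenin of both adherens junctions and desmosomes, showed the largest fall of this list. It went from 123 ± 7.39 to 28.7 ± 0.510 CPM (log2 difference -2.10 ± 0.08, SE; edgeR adjusted p = 1.1e-11). JUP overlaps EIF1 on the opposite strand, which had 3756 and 4178 exon reads in DMSO and 2304 and 2433 in wogonin. CTNNB1, which encodes beta-catenin, and CTNND1, which encodes p120 catenin, fell by 0.51 and 0.50 on the log2 scale. CTNNA1, which encodes alpha-catenin and was named after its values were seen, was at -0.02 on the log2 scale (edgeR adjusted p = 0.72). The actin crosslinker gene ACTN4 rose by 0.39, from 375 ± 26.5 to 490 ± 18.7 CPM.

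Of 15 desmosome genes 6 were tested, with 4 lower and none higher, beside 31.5% lower and 32.3% higher among all genes tested. DSP, which encodes the plaque protein desmoplakin, fell by 0.63 on the log2 scale, from 39.3 ± 2.33 to 25.4 ± 4.94 CPM, and the plakophilin relative PKP4 fell by 0.51. PERP fell by 0.30 and PKP3 by 1.25. The call of PKP3 was lost with DESeq2 (adjusted p = 0.066) and without DMSO 1 (edgeR adjusted p = 0.064). In exon-exon junction reads PKP3 was at -0.45 (edgeR adjusted p = 0.38) and PERP at -0.13 (edgeR adjusted p = 0.49).

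**Figure D2:**
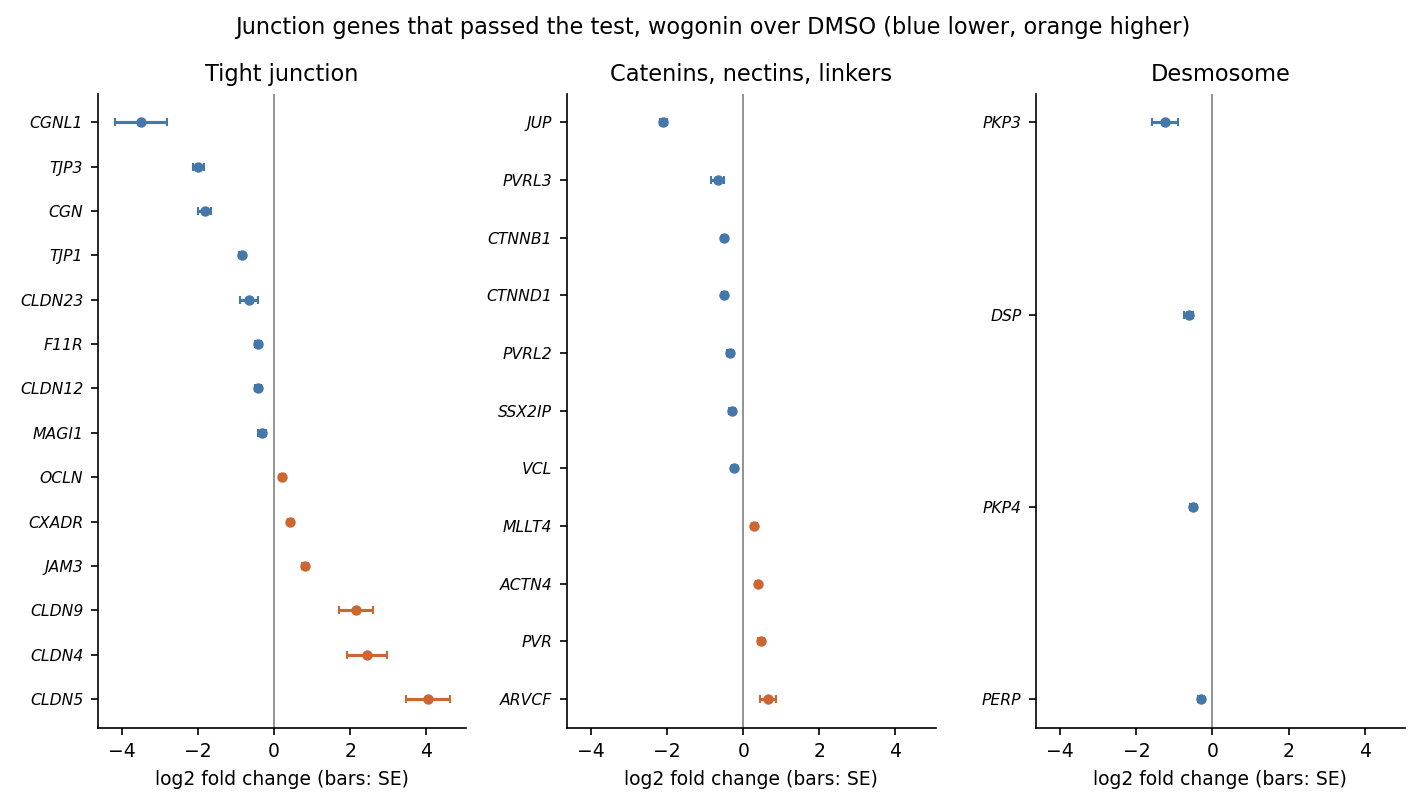
Log2 fold change of the genes that passed the test in the tight junction, catenin and desmosome lists (horizontal axis, wogonin over DMSO), with points for estimates and bars for standard errors. TJP3 and JUP, 3.99-fold and 4.29-fold lower, are among the lowest points, and the highest are CLDN5 and CLDN4, which had few reads in DMSO.

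Polarity complexes, which place junctions along the cell side, went both ways, with 7 lower, 4 higher and 8 not called among 19 tested genes. MPDZ, a scaffold that binds tight junction proteins, fell from 568 ± 30.9 to 253 ± 8.11 CPM (log2 difference -1.17). PARD6B fell by 0.94 on the log2 scale. SCRIB, which encodes the basolateral scaffold Scribble, rose from 81.3 ± 11.5 to 183 ± 8.40 CPM (log2 difference 1.17). DLG2 was at -1.65 in exon reads but at 0.50 in all gene reads, which include introns, so its direction depends on which reads are counted.

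VIM (ENSG00000026025, chromosome 10, 17270258 to 17279592) was among the most abundant transcripts of the cells. It took 1.05% and 0.957% of all exon reads in DMSO and 0.918% and 0.966% in wogonin. Its level was 10261 and 9238 CPM in DMSO and 9427 and 10049 CPM in wogonin, and the groups overlapped on this scale, though not in deposited TPM (8754 and 8040 against 7567 and 7648). The log2 fold change was 0.00 ± 0.06 (SE, edgeR adjusted p = 0.98). Between 66.0% and 72.4% of its exon reads had a single place in the genome, and in those reads the log2 fold change was 0.04 (edgeR adjusted p = 0.56). FN1 (ENSG00000115414, chromosome 2, 216225163 to 216300895), a matrix protein usually abundant in mesenchymal cells, was barely present, with 28 and 40 exon reads in DMSO and 28 and 22 in wogonin. The groups overlapped (log2 fold change -0.28 ± 0.32, SE, edgeR adjusted p = 0.46).

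Of 24 intermediate filament genes 7 were tested, with 4 lower, 2 higher and VIM not called. NES, which encodes nestin, a filament of progenitor cells that assembles with vimentin, fell from 3.92 ± 0.814 to 0.882 ± 0.204 CPM (log2 difference -2.14, edgeR adjusted p = 8.5e-05). INA, which encodes alpha-internexin, a neuronal filament, rose by 1.11 on the log2 scale, and SYNM, which encodes synemin, by 0.49. The 13 keratins other than KRT10 had 2 to 9 reads in all per library, and KRT10 fell by 0.60. The rise of SYNM did not pass in exon-exon junction reads (0.46, edgeR adjusted p = 0.13).

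In a list of FN1 itself with receptors and binders of fibronectin, 13 genes were tested, of which 5 were lower and 2 higher. The integrin gene ITGB1 rose from 733 ± 9.07 to 979 ± 22.0 CPM, while its partner ITGAV fell from 2131 ± 21.8 to 1677 ± 155 CPM. ITGB5 fell by 0.62 and the syndecan gene SDC2 by 0.97 on the log2 scale. TGF-beta, the best known inducer of the transition, had 10 tested ligands, receptors and binders, of which 3 were lower and 3 higher. The receptor TGFBR1 fell by 1.16 and the coreceptor TGFBR3 by 1.24 on the log2 scale, and LTBP1, which holds latent ligand in the matrix, fell by 1.14. TGFBRAP1, which encodes a receptor-associated protein, rose by 0.67.

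Over all 11 lists, each gene counted once and the 10 genes left out, 109 of 196 were tested, of which 46 were lower (42.2%), 27 higher (24.8%) and 36 not called, with a median of -0.13. For all genes tested these were 31.5% lower and 32.3% higher, with a median of 0.00. The lists were written with earlier results of these data known, and lists share genes.

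**Figure D3:**
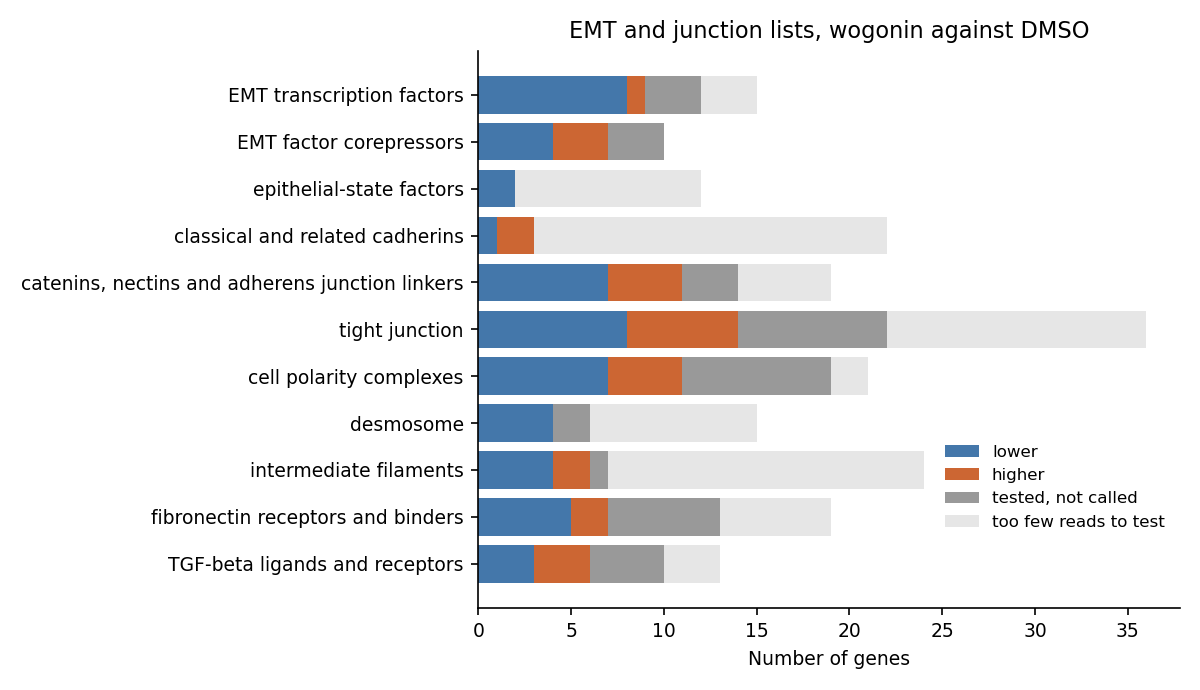
Number of genes in each list (horizontal axis) that were lower, higher or not called after wogonin, or had too few reads to test; bars are counts. Of the transcription factors 8 of 12 tested were lower, among them the chosen SNAI2, TWIST1, ZEB1 and ZEB2, and of the desmosome genes 4 of 6. Of all genes tested, 31.5% were lower and 32.3% higher. Most cadherins, keratins and epithelial-state factors had too few reads.

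Intron reads, counted apart from exon reads in the same libraries, gave a second readout for 7 of the 10 genes. Most intron reads come from RNA that is not yet spliced or keeps an intron, so exon and intron values of a gene need not move alike. Of 10495 genes tested in intron reads, 20.1% were called, 11.3% higher and 8.82% lower (edgeR), a smaller share than in exon reads. Of the 7 genes, TJP1 and VIM were lower, TJP3 was higher, and TWIST1, ZEB1, CDH2 and FN1 did not pass.

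TJP3 moved in opposite directions in exon and intron reads. Its intron reads were 20 and 12 in DMSO and 52 and 36 in wogonin, while its exon reads fell as given above. Introns thus held 6.60% (95% Wilson interval 4.31 to 9.97%) and 4.40% (2.53 to 7.52%) of its reads in DMSO, and 47.7% (38.6 to 57.0%) and 35.6% (27.0 to 45.4%) in wogonin. Scaled to the intron reads of each library, the log2 fold change was 1.14 ± 0.37 (SE, edgeR adjusted p = 0.041). That call was lost with DESeq2 (adjusted p = 0.24), with upper-quartile scaling (edgeR adjusted p = 0.061) and without DMSO 1 or DMSO 2 (edgeR adjusted p = 0.12 and 0.49).

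The difference between the intron and the exon change was then tested in 1 edgeR model over both kinds of reads with the library as a term, a test chosen after these values were seen. For TJP3 the difference was 3.16 ± 0.38 log2 units (SE, edgeR adjusted p = 1.7e-04), and it was 2.89 to 3.51 when each library was left out in turn, with adjusted p of 2.3e-04 or less. Differences in this direction were called in 5.76% of 9475 genes. A fall in exon reads with a rise in intron reads, both called, was found in 104 of these genes (1.1%). Exon-exon junction reads made up 68.2% and 67.4% of its exon reads in DMSO and 70.2% and 63.1% in wogonin, and they fell by 2.03 on the log2 scale. No gene of the deposited tables overlaps TJP3.

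For TJP1, intron and exon reads both fell. Its intron reads were 111 and 106 in DMSO and 86 and 49 in wogonin (log2 difference -1.02 ± 0.27, SE; edgeR adjusted p = 0.015), and the difference from the exon change was -0.16 ± 0.28 (SE, edgeR adjusted p = 0.77). The intron call was lost without DMSO 1 or DMSO 2 (edgeR adjusted p = 0.23 and 0.15). Unlike TJP3, VIM had level exon reads and fewer intron reads. It had 445 and 395 intron reads in DMSO and 220 and 224 in wogonin (log2 difference -1.19 ± 0.26, SE; edgeR adjusted p = 0.0048), and a difference from the exon change of -1.21 ± 0.25 (SE, edgeR adjusted p = 0.0064). Without DMSO 1 or DMSO 2 the intron value was -1.08 and -1.31 and the difference -1.16 and -1.24, close to those of all 4 libraries, but neither passed the test (edgeR adjusted p = 0.16 and 0.065 for the intron value, 0.22 and 0.17 for the difference). Differences in this direction were called in 4.95% of genes, and 2.21% had lower intron reads with exon reads not called. VIM overlaps VIM-AS1 on the opposite strand, which had 32 to 42 exon reads and 18 to 34 intron reads per library.

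For ZEB1 and TWIST1 the intron value rested on wogonin 3, the library with the high intron share. ZEB1 had 42 and 30 intron reads in DMSO, 94 in wogonin 3 and 22 in wogonin 4, and TWIST1 had 58 and 49, then 124 and 46. The log2 fold changes in intron reads were 0.28 ± 0.41 and 0.29 ± 0.32 (SE, edgeR adjusted p = 0.68 and 0.57). Without wogonin 3 they were -0.71 and -0.22, and without wogonin 4 they were 0.76 and 0.58, both of which passed (edgeR adjusted p = 0.012 and 0.031). The part of that library's intron share in these values was not tested. ZEB1 overlaps ZEB1-AS1 on the opposite strand. The deposited span of TWIST1 is 96682 bases long, with 2033 bases of exon, and where in it the intron reads lay is not given. FN1 had 7 and 11 intron reads in DMSO and 27 and 16 in wogonin, which did not pass (log2 fold change 0.92 ± 0.45, SE, edgeR adjusted p = 0.16). Introns held at most 21.6% of the reads of FN1 in DMSO, and 49.1% and 42.1% in wogonin, on few reads. CDH2 had 23 and 12 against 23 and 11 (edgeR adjusted p = 0.59). For TWIST1, ZEB1, FN1 and CDH2 the difference between the intron and the exon change did not pass. It was 0.90 ± 0.32, 0.89 ± 0.45, 1.20 ± 0.49 and -0.15 ± 0.44 (SE, edgeR adjusted p = 0.083, 0.23, 0.13 and 0.87). SNAI2, ZEB2 and CDH1 had too few intron reads to be tested.

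**Figure D4:**
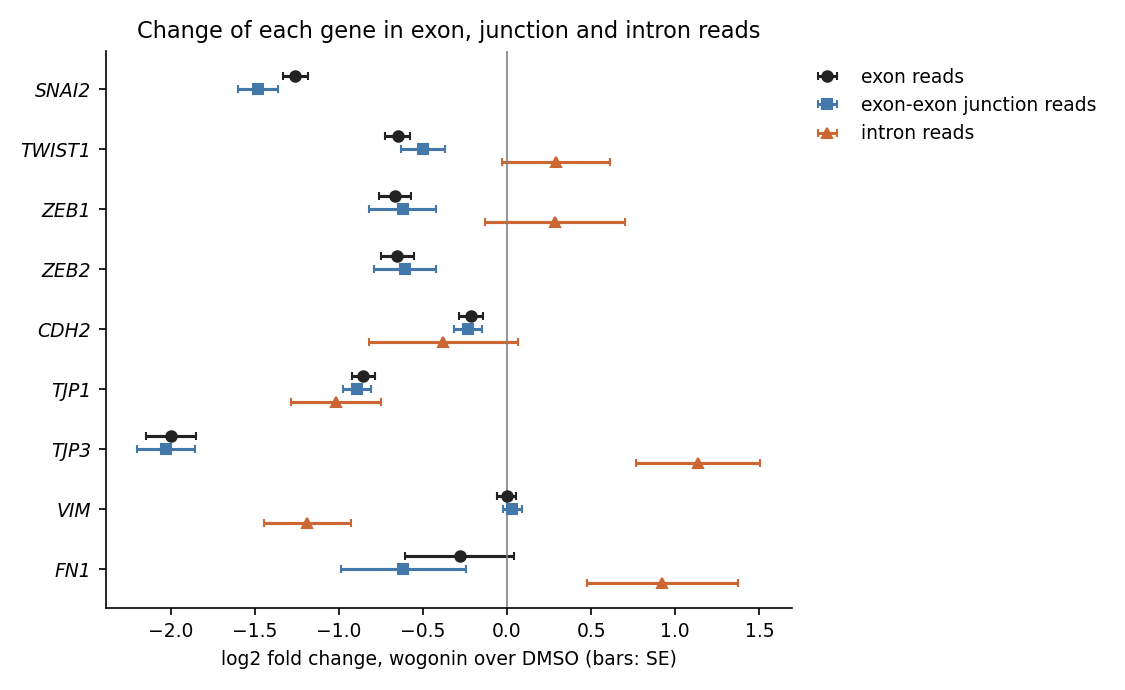
Log2 fold change of 9 genes (horizontal axis, wogonin over DMSO) in exon reads (circles), exon-exon junction reads (squares) and intron reads (triangles), with bars for standard errors; SNAI2 and ZEB2 have no intron estimate. Exon and junction estimates lie closest for CDH2, TJP1, TJP3, ZEB1, ZEB2 and VIM and farthest apart for FN1, which has few reads, the intron estimate of TJP3 is at 1.14 while its exon reads were 3.99-fold lower, and that of VIM is at -1.19 against 0.00 in exon reads.

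**Figure D5:**
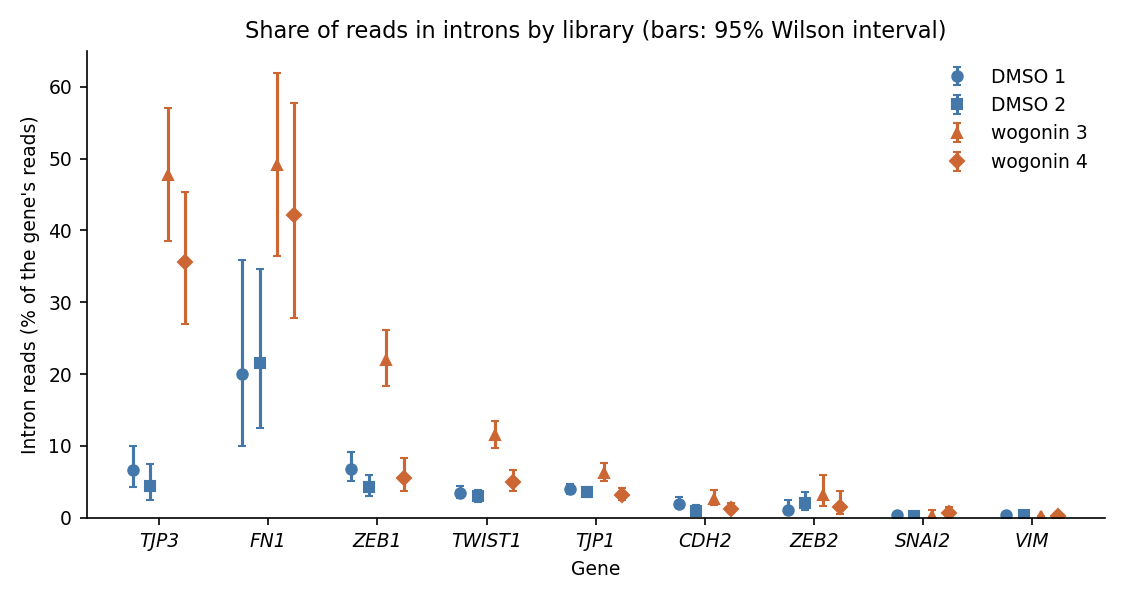
Share of each gene's reads that lay in introns (percent, vertical axis) in each library, with 95% Wilson intervals that cover counting error only. For TJP3 both wogonin libraries (47.7% and 35.6%) lie above both DMSO libraries (6.60% and 4.40%), while for ZEB1 and TWIST1 wogonin 3 alone stands high.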

How the data were processed

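The authors deposited a gene table for each of the 4 libraries. Its columns, per the file headers, are read counts for exons, exon-exon junctions, introns and whole genes, with TPM and RPKM values and ratios or fractions derived from them. The deposited TPM served for levels between genes, and the deposited RPKM values and fractions were not used for tests. The genome builds are GRCh 37 and hg 19, per the submitters' processing notes. The sources used here do not name an aligner, a counter or a strand option. Overlaps with other annotated genes are given for some of the named genes only.

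The test on total exon counts was that of edgeR 4.0.16 (R 4.3.3; filterByExpr, TMM scaling, robust quasi-likelihood fit, 2-sided, Benjamini-Hochberg over all genes tested, threshold 0.05). Intron counts were tested likewise. The SE of an edgeR value was derived from the test, as the size of the log2 value divided by the square root of the F statistic. Means and SDs of TMM-scaled CPM span both libraries of each group. Counting error is all that intervals and floors reflect. No 2 libraries were copies. Per degree of freedom, the chi-square between exon counts came to 2.98 within DMSO, 7.20 within wogonin and at least 55.5 across groups. DESeq2 1.42.0 and limma 3.58.1 (voom) served as alternatives, beside other scalings, filters and read columns and the removal of each library. The tests were also run on simulated counts with 200 changed genes and the same spread set for all genes. That setting differs from these data, where 63.8% of genes were called, and no conclusion is drawn from it.

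The 10 genes and all lists were chosen with earlier results of these data known. Named are the 10 genes, up to 4 tested genes per list with the smallest adjusted p, 6 relatives of the 10 genes and the 3 profiles nearest to SNAI2, with others marked as chosen after their values were seen. Some items are not reported here. Exon-exon junction reads and the model of intron against exon change were added after seeing the data.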

Additional observations from a re-analysis of the deposited data

How the results depend on the processing

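The count of 7 lower genes was 6 or 7, with none higher, under all 16 alternatives, which were other scalings, filters, tools and read columns and the removal of each library in turn. The gene lost was CDH2 each time. SNAI2 ranged from -1.48 to -1.15, TWIST1 from -0.74 to -0.50, ZEB1 from -0.77 to -0.57, ZEB2 from -0.75 to -0.61, TJP1 from -0.95 to -0.76 and TJP3 from -2.09 to -1.37 on the log2 scale, the last being nearest to 0 when unique reads of exons and introns were counted together. VIM (-0.09 to 0.06) and FN1 (-0.62 to 0.19) were not called under any of them and changed sign. The count of 3 genes called in intron reads ranged from 0 to 5 when each library was left out: it was 0 without DMSO 1 or without DMSO 2, 3 without wogonin 3 and 5 without wogonin 4. There the lone library of an arm is assumed to vary like the other group. DLG2 turned from -1.65 to 0.50 in total and 0.52 in unique gene reads. For 52 other named genes, 805 of 821 alternative values stayed on their side of the threshold, 12 lost and 2 gained a call, and the 2 of DLG2 reversed. The count of genes with CAGGTG or CACCTG was 2 in the 150 bases nearest the start as well. Library totals alone moved the median of all genes to -0.09. No paired analysis was possible because the groups share no replicate number. Depth limits CDH1, FN1, SNAI1 and most cadherins and keratins, which had from 0 to 40 exon reads per library.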

Other observations

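Other mesenchymal and fibroblast markers, which are not among the genes above, went both ways. Of 10 such markers 6 were tested, with 2 higher and 2 lower. ACTA2, which encodes smooth muscle actin, rose from 173 ± 4.25 to 330 ± 31.1 CPM (SD, n = 2 each) (log2 difference 0.93, edgeR adjusted p = 1.0e-08), and overlaps STAMBPL1 and FAS on the opposite strand. THY1, a surface glycoprotein of fibroblasts and stem cells, rose from 33.7 ± 0.577 to 59.0 ± 3.07 CPM (log2 difference 0.81). The collagen genes COL3A1 and COL1A1 fell by 0.29 and 0.67 on the log2 scale, COL3A1 from 735 ± 39.9 to 602 ± 6.32 CPM. PDGFRA, PDGFRB and FAP had at most 5 reads in any library. Of 8 leukocyte markers PTPRC, CD3E and ITGAM had no read, and CD68 was the only one tested (edgeR adjusted p = 0.75). Of 6 endothelial markers VWF, CDH5 and TEK had no read, and CLDN5, given above, was the only one tested.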
